A study of Mus musculus with 6 samples.

Results

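The D-type cyclins (Ccnd1, Ccnd2, Ccnd3), the kinases that they bind (Cdk4, Cdk6), inhibitors of these kinases (Cdkn1a, Cdkn1b, Cdkn2c, Cdkn2d) and the retinoblastoma gene Rb1 were measured by poly(A) RNA-Seq in LSK cells, the Lin-Sca+Kit+ fraction of mouse bone marrow that holds the hematopoietic stem cells and early progenitors. The 10 genes were found by their symbols among 53445 listed loci, and the longest locus was taken where a symbol was listed more than once, which was the case for Cdk6. All 10 were read deeply enough to be tested, with between 140 and 11482 reads in a library. The comparison is between 3 libraries of OgaVav-Cre mice and 3 libraries of wildtype mice, each from 1 female C57BL/6 mouse of about 12 weeks and from at least 20000 sorted cells. In OgaVav-Cre mice the floxed gene Oga (Oga fl/fl), which encodes the enzyme that removes O-GlcNAc from proteins, is deleted by the Vav-iCre transgene in the whole hematopoietic lineage, so that cells that descend from the stem cells carry the deletion too. Whether the wildtype mice carried the transgene or a floxed allele is not given in the sources used here.

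In the textbook scheme, D cyclins are made in response to growth signals and pair with Cdk4 or Cdk6, and the pairs phosphorylate the Rb1 protein, which then lets go of E2F transcription factors so that genes of DNA replication are expressed. The INK4 inhibitors, among them the products of Cdkn2c and Cdkn2d, bind Cdk4 and Cdk6 directly. The CIP/KIP inhibitors, among them the products of Cdkn1a and Cdkn1b, bind cyclin-CDK pairs and are best known as brakes on Cdk2. In blood stem cells, which mostly rest, Cdk6 is known for its part in the exit from rest, and several of the inhibitors are known to keep stem cells from cycling.

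The libraries held 19318056 to 27064389 reads, and values of single libraries are given below in the order of their replicate numbers, 1, 2 and 3. Oga, listed as Mgea5, reached 139 ± 20.7 CPM (reads scaled to library size, as counts per 1e+06 reads; SD over 3 libraries) in wildtype and 4.31 ± 0.299 CPM in OgaVav-Cre cells, so that the labels and the target agree in every library. All 12 LSK markers on the list used (Kit, Ly6a, Cd34 and others) were above 1 CPM in all 6 libraries. Markers of other cells were present too: the 4 B cell markers were each above 1 CPM in all 6 libraries, with a summed level of 122 to 625 CPM in OgaVav-Cre and 91.7 to 436 CPM in wildtype libraries. The 7 plasma cell markers were also each above 1 CPM in all 6 libraries. Their sum was 1529 to 11148 CPM in OgaVav-Cre and 1633 to 7631 CPM in wildtype libraries. The share of reads on immunoglobulin loci was between 1.17 and 9.88%. Both the plasma cell marker sum and this share were highest in OgaVav-Cre replicate 1 and lowest in OgaVav-Cre replicate 3. OgaVav-Cre replicate 3 stood apart, with the highest B cell, T and NK cell (141 CPM) and erythroid (2279 CPM) sums and the lowest LSK marker sum (1299 CPM). In such bulk RNA, fewer cells of a type and less RNA per cell cannot be told apart.

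None of the 10 genes passed the cutoffs of the study, an adjusted p under 0.05 together with a log2 fold change beyond 1, in the quasi-likelihood test of edgeR, and none did with DESeq2 or limma-voom. Among all 22032 loci tested, 0.0318% passed these cutoffs with edgeR (0.00454% higher and 0.0272% lower in OgaVav-Cre cells). With DESeq2 and limma-voom the background was 0.52 and 0.0227%. At an unadjusted edgeR p below 0.05, Ccnd1 and Ccnd2 were higher and Cdk6 was lower in OgaVav-Cre cells, 3 of 10 genes against 10.6% of all loci. Ccnd1 alone among the 10 was higher in every OgaVav-Cre library than in any wildtype library, and Cdk6 alone was lower, which makes 2 of 10 genes against 17.5% of all loci (7.5% higher and 9.97% lower). The log2 fold change was above 0 for 5 genes and below 0 for 5, with a median of -0.02 against 0.0041 for all loci.

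**Figure D1:**
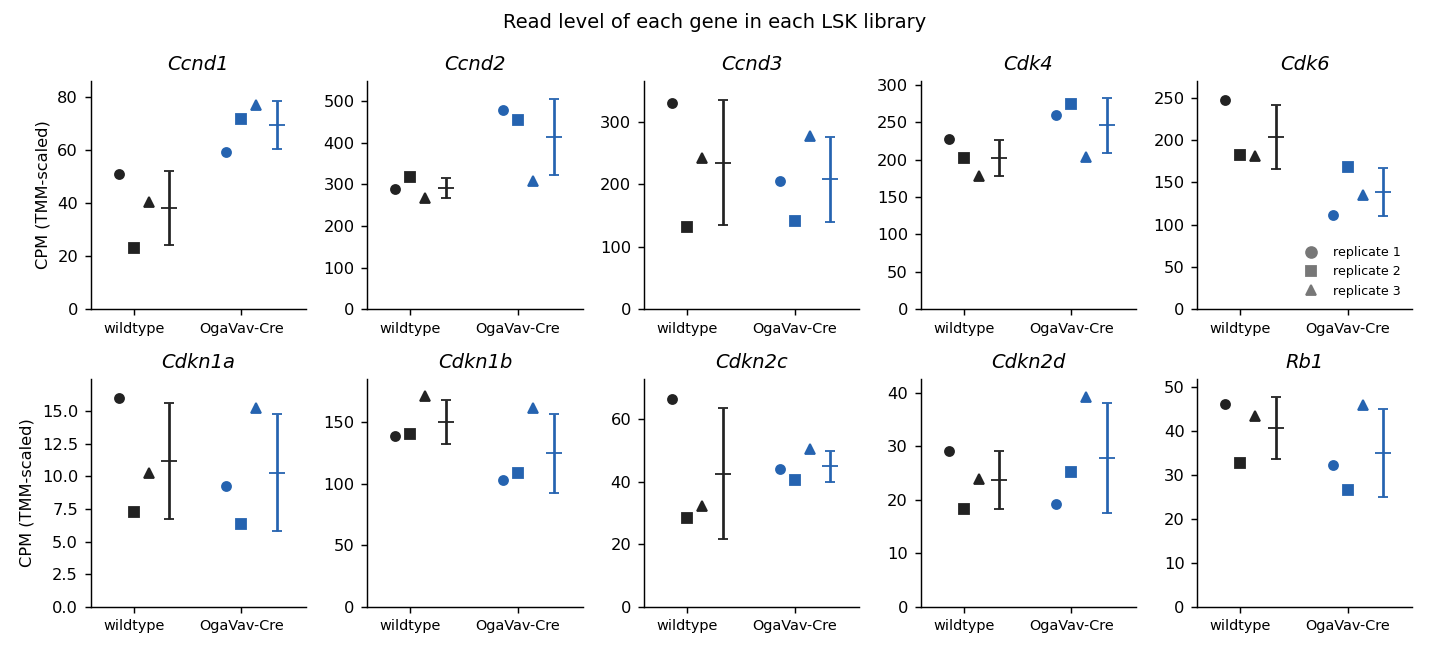
Level of each of the 10 genes in CPM, scaled by edgeR's TMM method, with 1 marker per library (circle, square and triangle for replicates 1, 2 and 3) and the mean with its SD over 3 libraries at the right of each group. Ccnd1 lay between 59.3 and 76.9 CPM in OgaVav-Cre libraries and between 23.1 and 50.8 CPM in wildtype libraries, Cdk6 showed the opposite order without overlap, and the other 8 genes overlapped.

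Ccnd1, which encodes cyclin D1, lies on mm9 chromosome 7 (minus strand, 152115836 to 152125830). It was at 59.3, 71.6 and 76.9 CPM in the OgaVav-Cre libraries, and at 50.8, 23.1 and 40.3 CPM in the wildtype libraries. All 3 OgaVav-Cre libraries were thus above all 3 wildtype libraries, but the lowest of the former and the highest of the latter were close, and wildtype replicate 2 was below the other two. The means were 69.3 ± 9.05 and 38.1 ± 14.0 CPM (SD, n = 3 each), a log2 fold change of 0.86 (standard error 0.269, 95% interval 0.24 to 1.49). The unadjusted p was 0.0131 and the adjusted p was 0.412 with edgeR after Benjamini-Hochberg adjustment over all loci. DESeq2's Wald test gave the lowest adjusted p of all alternatives, 0.0706. The log2 fold change was 0.61 without wildtype replicate 2 and 1.13 without wildtype replicate 1, the ends of its range with each library left out.

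The 3' end of the Ccnd1 locus overlaps listed loci on the opposite strand, LOC100503188 with 690 shared bases and Oraov1 with 818. LOC100503188 had 272, 296 and 301 reads in the OgaVav-Cre libraries and 162, 106 and 176 reads in the wildtype libraries. It was also higher in all OgaVav-Cre libraries (log2 fold change 0.76, adjusted p = 0.401 with edgeR). Oraov1 was higher in all OgaVav-Cre libraries by a log2 fold change of 0.35 (adjusted p = 0.472 with edgeR). Whether reads were assigned by strand is not given in the sources used here, so reads of these overlapping ends cannot be told apart. Overlaps with other listed loci exist for 8 of the 10 genes, all but Cdkn1b and Cdkn2d. With every read of LOC100503188 subtracted from Ccnd1, the log2 fold change of Ccnd1 was 0.88, against 0.86 as listed. The reads of Oraov1 were not subtracted, so this check does not cover that overlap. Over the 6 libraries, reads of Oraov1 equalled 58.3% of those of Ccnd1, and reads of LOC100503188 17.0%.

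Ccnd2, which encodes cyclin D2, lies on mm9 chromosome 6 (minus strand, 127075184 to 127101066) and had the highest mean CPM of the 10 genes in both genotypes. It was at 478, 454 and 309 CPM in the OgaVav-Cre libraries, and at 288, 317 and 268 CPM in the wildtype libraries. OgaVav-Cre replicate 3 lay within the wildtype range, and the other two lay far above it. This gave a log2 fold change of 0.51 (standard error 0.187, 95% interval 0.07 to 0.94), with an unadjusted p of 0.0274 and an adjusted p of 0.439 with edgeR. Without OgaVav-Cre replicate 3, the library with the most B cell, T cell and erythroid marker RNA, it was 0.68 (adjusted p = 0.208 with edgeR). Without OgaVav-Cre replicate 1 it was 0.39 (adjusted p = 0.738 with edgeR). With the immunoglobulin share as a covariate it was 0.385 (adjusted p = 0.393 with edgeR). OgaVav-Cre replicates 1 and 2 and wildtype replicate 2 were the highest libraries both for Ccnd2 and for the plasma cell markers, and the part of such cells was not tested.

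Ccnd3, which encodes cyclin D3, the D cyclin known for its role in the expansion of developing lymphocytes, lies on mm9 chromosome 17 (plus strand, 47642000 to 47736638). It was at 204, 142 and 277 CPM in the OgaVav-Cre libraries, and at 330, 131 and 241 CPM in the wildtype libraries. The genotypes overlapped fully, and the wildtype libraries alone spanned the range of all 6. On the log2 scale the fold change was -0.18, with a standard error of 0.355 and an adjusted p of 0.878 from edgeR. The 95% interval of the linear fold was 0.50 to 1.57.

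Per length of the locus, the 3 D cyclins can be set beside each other. Their summed level was taken as TMM-scaled CPM per kilobase of locus (RPKM). It was 90.5, 84.0 and 84.8 in the OgaVav-Cre libraries and 82.0, 55.4 and 67.0 in the wildtype libraries. The groups did not overlap, but OgaVav-Cre replicate 2 (84.0) and wildtype replicate 1 (82.0) were close. The summed level depends on the scaling of the library, and the separation of the groups was not tested. Ccnd1 made up 16.8, 21.9 and 23.3% of this sum in the OgaVav-Cre libraries and 15.9, 10.7 and 15.5% in the wildtype libraries, and it was the smallest of the 3 parts in all libraries except OgaVav-Cre replicate 2. Ccnd2 made up 57.5, 58.9 and 39.6% in the OgaVav-Cre libraries and 38.3, 62.4 and 43.6% in the wildtype libraries. The part of Ccnd3 was the largest in wildtype replicate 1 alone, with 45.8%. The ratio of Ccnd1 to Ccnd2 differed by 0.45 on the log2 scale between genotypes (p = 0.5, two-sided exact permutation test), and that of Ccnd3 to Ccnd2 by -0.61 (p = 0.4, same exact test), so neither balance differed beyond the spread between libraries. With each library left out, the former difference ranged from 0.058 (without wildtype replicate 2) to 0.70 (without wildtype replicate 1), and the latter from -1.05 (without wildtype replicate 2) to -0.28 (without OgaVav-Cre replicate 2).

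Of the catalytic partners, Cdk4 lies on mm9 chromosome 10 (plus strand, 126500590 to 126504976) and has 6 exons. It was at 259, 274 and 204 CPM in the OgaVav-Cre libraries, and at 227, 202 and 178 CPM in the wildtype libraries. OgaVav-Cre replicate 3 fell inside the wildtype range. Its log2 fold change was 0.28 (standard error 0.160, 95% interval -0.09 to 0.65, adjusted p = 0.553 with edgeR), and without OgaVav-Cre replicate 3 it was 0.40 (adjusted p = 0.315). LOC640611, listed on the same strand inside Cdk4, could share its reads and had a log2 fold change of 0.37 (adjusted p = 0.530 with edgeR).

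Cdk6 lies on mm9 chromosome 5 (plus strand, 3343893 to 3525260) and has 8 exons. It was at 112, 168 and 135 CPM in the OgaVav-Cre libraries, and at 248, 183 and 181 CPM in the wildtype libraries. All OgaVav-Cre libraries were below all wildtype libraries, with OgaVav-Cre replicate 2 nearest to the wildtype range. For Cdk6 the log2 fold change was -0.56 (standard error 0.196, 95% interval -1.01 to -0.10), with an unadjusted p of 0.0223 and an adjusted p of 0.426 with edgeR. With each library left out in turn it lay between -0.72 and -0.39. With the summed B cell marker level as a covariate it was -0.56 and with the immunoglobulin share -0.52.

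A second Cdk6 locus of 2 exons, from 3450011 to 3530998 on the same strand, held more reads than the 8-exon locus in every library, and the 2 loci share 75250 bases of their span. It was at 270, 238 and 213 CPM in the OgaVav-Cre libraries, and at 322, 250 and 280 CPM in the wildtype libraries. The groups overlapped, and the log2 fold change was -0.24 (adjusted p = 0.580 with edgeR). With the reads of both loci summed it was -0.37 (adjusted p = 0.459 with edgeR). The 8-exon locus had 0.415, 0.708 and 0.633 reads for each read of the 2-exon locus in the OgaVav-Cre libraries and 0.770, 0.732 and 0.645 in the wildtype libraries (p = 0.2, two-sided exact permutation test). These ratios overlapped between genotypes. The estimate for the 2-exon locus was below 0 too, but smaller in size, and its 95% interval of -0.59 to 0.11 included 0.

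The ratio of Cdk6 to Cdk4 per length, which does not depend on the scaling of the library, was 0.243, 0.346 and 0.373 in the OgaVav-Cre libraries and 0.616, 0.510 and 0.572 in the wildtype libraries. The genotypes did not overlap, and OgaVav-Cre cells had the lower ratio, with a mean log2 difference of -0.84. The two-sided exact permutation test gave p = 0.1, the smallest value that 3 against 3 allows, and 0.6 after adjustment over the 6 ratios computed. With the 2-exon locus in place of the 8-exon locus the difference was -0.52, and with both loci summed it was -0.63, again without overlap and with p = 0.1 in the same exact test. Cdk4 exceeded Cdk6 in all 6 libraries under each of these choices. The sum of both kinases was 99.0, 113 and 86.1 RPKM in the OgaVav-Cre and 113, 93.8 and 86.0 RPKM in the wildtype libraries, so the summed level overlapped between genotypes.

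**Figure D2:**
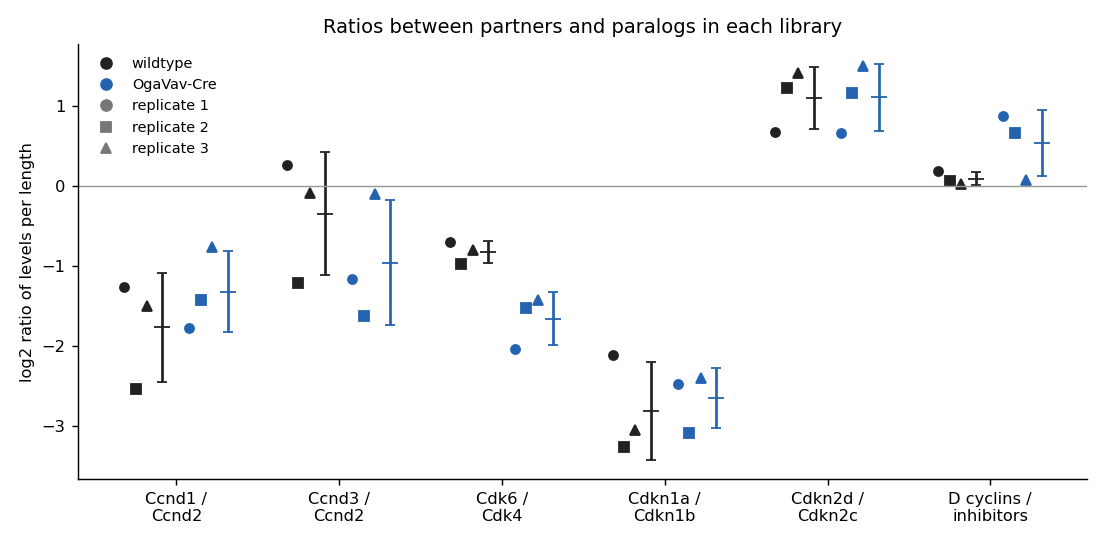
Log2 ratios of levels per length in each library for the 6 ratios compared, with 1 marker per library (circle, square and triangle for replicates 1, 2 and 3) and the mean with its SD. The genotypes were apart for Cdk6/Cdk4 alone, where the 3 OgaVav-Cre libraries had ratios of 0.243 to 0.373 and the 3 wildtype libraries 0.510 to 0.616.

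Cdk6/Cdk4 alone among the 6 ratios did not overlap between genotypes, so the promoters of both genes are shown next to each other. The RefSeq promoter table holds windows for 7 of the 10 genes. The 250-base windows upstream of Cdk4 (mm9, plus strand, chr10:126500341-126500590) and of Cdk6 (mm9, plus strand, chr5:3343643-3343892) were matched to the mm9 genome and are given 5' to 3', with the E-box CACGTG, the motif that MYC and related factors bind, in capitals. The last base of the Cdk4 window is the first base of the listed Cdk4 locus, and the Cdk6 window ends on the base before its locus.
Cdk4: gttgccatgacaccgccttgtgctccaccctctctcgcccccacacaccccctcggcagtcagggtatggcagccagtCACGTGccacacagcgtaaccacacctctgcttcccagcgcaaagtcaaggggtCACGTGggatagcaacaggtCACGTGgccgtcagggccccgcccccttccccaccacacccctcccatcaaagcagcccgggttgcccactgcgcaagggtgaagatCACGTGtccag
Cdk6: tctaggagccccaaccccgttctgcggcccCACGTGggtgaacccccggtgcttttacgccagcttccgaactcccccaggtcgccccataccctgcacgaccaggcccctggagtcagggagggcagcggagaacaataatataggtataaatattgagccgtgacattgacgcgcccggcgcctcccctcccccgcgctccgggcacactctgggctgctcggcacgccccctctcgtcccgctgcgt
The Cdk4 window holds CACGTG 4 times and the Cdk6 window once. CACGTG, which reads the same on both strands, is present in 6.02% of 32851 promoter windows of the same length, and 7 windows (0.0213%) hold it 4 times or more. No other promoter window of the 7 genes holds it. The E2F sites TTTCGCGC and TTTGGCGC, searched on both strands and present in 0.256 and 0.417% of windows, were found in neither, and the GC box GGGCGG, present in 32.7%, was found once in Cdk4 and not in Cdk6. These matches describe letters in the windows and not bound sites. The RNA of Myc itself was at 243 ± 49.5 CPM in OgaVav-Cre and 247 ± 13.9 CPM in wildtype cells (SD, n = 3 each; log2 fold change -0.02, adjusted p = 0.972 with edgeR).

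Cdkn1b, which encodes the CIP/KIP inhibitor p27, lies on mm9 chromosome 6 (plus strand, 134870419 to 134875543) and had the highest level per length of the 4 inhibitors in both genotypes. It was at 103, 109 and 162 CPM in the OgaVav-Cre libraries, and at 139, 141 and 171 CPM in the wildtype libraries. OgaVav-Cre replicates 1 and 2 were below all wildtype libraries, and OgaVav-Cre replicate 3 was not. The log2 fold change was -0.27 (standard error 0.195, 95% interval -0.72 to 0.18, adjusted p = 0.626 with edgeR), and without OgaVav-Cre replicate 3 it was -0.50 (unadjusted p 0.0108, adjusted p = 0.254). Without OgaVav-Cre replicate 1 it was -0.15, the other end of its range.

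Cdkn1a, which encodes p21, a target of p53, lies on mm9 chromosome 17 (plus strand, 29227924 to 29237686) and had the lowest level of the 10 genes. It was at 9.27, 6.37 and 15.2 CPM in the OgaVav-Cre libraries, and at 16.0, 7.26 and 10.3 CPM in the wildtype libraries. The genotypes overlapped, with a wide spread within each. This gave a log2 fold change of -0.12 (standard error 0.386, 95% interval -1.02 to 0.78, adjusted p = 0.928 with edgeR). Trp53, the gene of p53, was at 177 ± 14.2 and 171 ± 2.06 CPM in OgaVav-Cre and wildtype cells (SD, n = 3 each; log2 fold change 0.05, adjusted p = 0.902 with edgeR). The ratio of Cdkn1a to Cdkn1b per length was between 0.117 and 0.188 in OgaVav-Cre and between 0.103 and 0.230 in wildtype libraries (p = 0.9, two-sided exact permutation test).

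The INK4 gene Cdkn2c, known for limiting the self-renewal of blood stem cells, lies on mm9 chromosome 4 (minus strand, 109333481 to 109339794). It was at 44.0, 40.6 and 50.3 CPM in the OgaVav-Cre libraries, and at 66.5, 28.5 and 32.4 CPM in the wildtype libraries. The 3 OgaVav-Cre libraries were close together between the 2 lower and the 1 higher wildtype library. For Cdkn2c the log2 fold change was 0.08 (standard error 0.308, 95% interval -0.63 to 0.80, adjusted p = 0.939 with edgeR), and wildtype replicate 1 decided it: without that library it was 0.56 (unadjusted p 0.00842, adjusted p = 0.244).

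Cdkn2d, the other INK4 gene of the group, lies on mm9 chromosome 9 (minus strand, 21092854 to 21095653). It was at 19.2, 25.1 and 39.1 CPM in the OgaVav-Cre libraries, and at 29.1, 18.3 and 23.8 CPM in the wildtype libraries. The genotypes overlapped, and OgaVav-Cre replicate 3 was the highest library. For Cdkn2d the log2 fold change was 0.23 (standard error 0.285, 95% interval -0.43 to 0.89, adjusted p = 0.787 with edgeR). The ratio of Cdkn2d to Cdkn2c per length differed by 0.0065 on the log2 scale (p = 1, two-sided exact permutation test), with 1.59 to 2.83 in OgaVav-Cre and 1.59 to 2.68 in wildtype libraries.

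The summed level of the 4 inhibitors was 49.4, 53.0 and 80.6 RPKM in the OgaVav-Cre libraries and 71.9, 53.0 and 65.7 RPKM in the wildtype libraries. The D cyclins exceeded this sum in every library, by ratios of 1.83, 1.58 and 1.05 in the OgaVav-Cre libraries and of 1.14, 1.05 and 1.02 in the wildtype libraries. OgaVav-Cre replicates 1 and 2 were above all wildtype libraries and replicate 3 was within their range. The difference was 0.44 on the log2 scale (p = 0.2, two-sided exact permutation test, 0.6 after adjustment over 6 ratios), with a range from 0.28 without OgaVav-Cre replicate 1 to 0.67 without OgaVav-Cre replicate 3.

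Rb1, the target of the kinases, lies on mm9 chromosome 14 (minus strand, 73595309 to 73725629) and has 27 exons. It was at 32.3, 26.7 and 46.0 CPM in the OgaVav-Cre libraries, and at 46.2, 32.8 and 43.4 CPM in the wildtype libraries. The genotypes overlapped through OgaVav-Cre replicate 3. Its log2 fold change was -0.22 (standard error 0.227, 95% interval -0.75 to 0.31, adjusted p = 0.737 with edgeR), and without that library it was -0.47 (unadjusted p 0.0441, adjusted p = 0.336). The other end of the range for Rb1 was -0.05, without OgaVav-Cre replicate 2.

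OgaVav-Cre replicate 3 touched the values of several of the genes at once. Without it, 6 of the 10 genes had an unadjusted edgeR p below 0.05, against 14.3% of all loci in that fit: Ccnd1, Ccnd2 and Cdk4 were higher, and Cdk6, Cdkn1b and Rb1 were lower in OgaVav-Cre cells. The lowest adjusted p among them was 0.208, for Ccnd2. With all libraries and the summed B cell marker level as a covariate, Ccnd1 was at 0.91 (adjusted p = 0.191 with edgeR) and Ccnd2 at 0.48 (adjusted p = 0.219). In that fit 3 of the 10 genes had an unadjusted edgeR p below 0.05, against 14.1% of all loci: Ccnd1, Ccnd2 and Cdk6. Cdk4, Cdkn1b and Rb1 had unadjusted p values of 0.0853, 0.0579 and 0.128 there. The part of T cell or erythroid RNA was not tested. Without OgaVav-Cre replicate 1, Ccnd1 alone remained at an unadjusted p below 0.05 (log2 fold change 0.97), 1 of 10 genes against 6.51% of all loci in that fit.

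**Figure D3:**
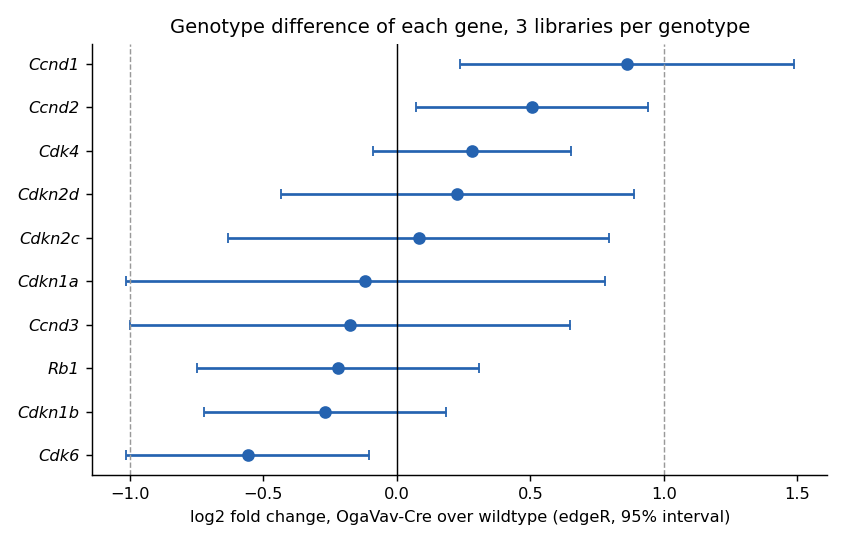
Log2 fold change of OgaVav-Cre over wildtype for each of the 10 genes from edgeR with its 95% interval, in order of size, with dashed lines at the cutoffs of -1 and 1. Ccnd1 (0.86) and Ccnd2 (0.51) had intervals above 0 and Cdk6 (-0.56) had one below 0, and the other 7 intervals included 0.

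Levels of different genes were compared per length, as the mean RPKM of 3 libraries, with the 8-exon locus for Cdk6. In wildtype cells the order was Cdk4 (62.2 ± 7.52), Cdk6 (35.3 ± 6.60), Cdkn1b (32.9 ± 3.94), Ccnd2 (31.7 ± 2.69), Ccnd3 (26.6 ± 11.4), Cdkn2d (17.3 ± 3.94), Ccnd1 (9.79 ± 3.60), Cdkn2c (8.48 ± 4.17), Rb1 (7.77 ± 1.34) and Cdkn1a (4.90 ± 1.94; SD, n = 3 each). Only Cdk4 and Cdk6, and Cdkn2d and Ccnd1, were neighbours whose libraries did not overlap, and the ranges of all other neighbours overlapped. Ranges were compared without matching genes within a library, so overlap does not mean that the order changed between libraries. Rb1, for example, was above Cdkn1a in all 6 libraries (8.80, 6.25 and 8.25 against 7.01, 3.19 and 4.51 RPKM in wildtype). In OgaVav-Cre cells Cdk4 came first with 75.5 ± 11.3 RPKM, followed by Ccnd2 with 45.1 ± 10.002 RPKM, and Cdk6 came after Cdkn1b with 24.0 ± 4.92 RPKM. There Cdk4 was apart from Ccnd2, and Ccnd1 (17.8 ± 2.33 RPKM) from Cdkn2c (8.98 ± 0.988 RPKM), and the other neighbours overlapped. The place of Cdk6 in both orders is that of the 8-exon locus. The 2-exon locus was at 52.6 ± 6.68 RPKM in wildtype cells (SD, n = 3), where its range of 46.3 to 59.6 RPKM overlapped that of Cdk4 (54.7 to 69.7 RPKM). In OgaVav-Cre cells it was at 44.5 ± 5.24 RPKM (SD, n = 3), next to Ccnd2 and above Cdkn1b (27.3 ± 7.06 RPKM).

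**Figure D4:**
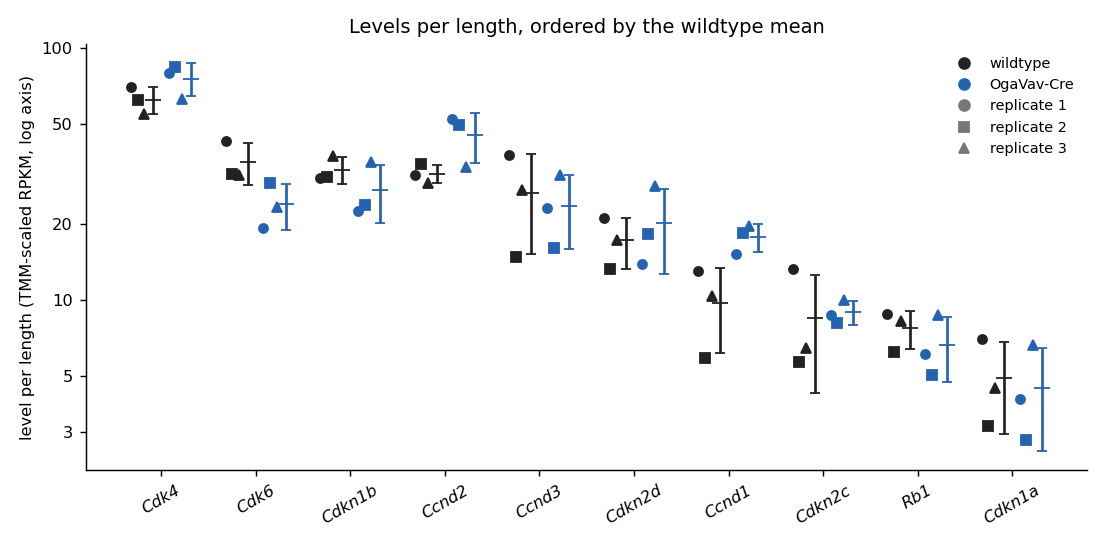
Level per length of each gene in TMM-scaled RPKM on a log axis, ordered by the wildtype mean, with the 8-exon locus for Cdk6, 1 marker per library and the mean with its SD at the right of each group. Cdk4 was the highest in both genotypes (62.2 and 75.5 RPKM) and Cdkn1a the lowest (4.90 and 4.51 RPKM).

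The spread within a genotype was not the same for all genes. In wildtype cells the coefficient of variation of the CPM was 49.2% for Cdkn2c, 42.7% for Ccnd3, 39.6% for Cdkn1a and 36.8% for Ccnd1, and 8.48% for Ccnd2. In OgaVav-Cre cells it was 13.1% for Ccnd1 and 22.2% for Ccnd2, and the Cdkn2c libraries there lay within 40.6 to 50.3 CPM. Ccnd3, Cdkn1a and Rb1 were each highest in wildtype replicate 1, OgaVav-Cre replicate 3 and wildtype replicate 3, in this order. The same 3 libraries had the highest sums of the 4 B cell markers (274, 625 and 436 CPM, in that order) and of the T and NK cell markers (83.3, 141 and 54.2 CPM), and the lowest sums of the LSK markers (1681, 1299 and 2121 CPM). The sort for lineage-negative cells, made with antibodies to lineage antigens, is meant to remove such cells, and their part in the levels of these 3 genes was not tested.

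Cdkn2c was set beside genes of S phase and mitosis. The summed level of 20 genes of S phase and mitosis was 2879, 2962 and 2965 CPM in the OgaVav-Cre libraries and 3991, 1833 and 2166 CPM in the wildtype libraries. The OgaVav-Cre libraries were close together inside the wildtype range, as they were for Cdkn2c. Wildtype replicate 1 was the highest library in both, and wildtype replicate 2 the lowest. Ccnd3 had the same highest and lowest libraries (330 and 131 CPM), so these were not particular to Cdkn2c. Over the 6 libraries, Cdkn2c had a Pearson r of log2 CPM of 0.742 with Ccnd3, 0.735 with Cdkn1a and 0.435 with Rb1.

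**Figure D5:**
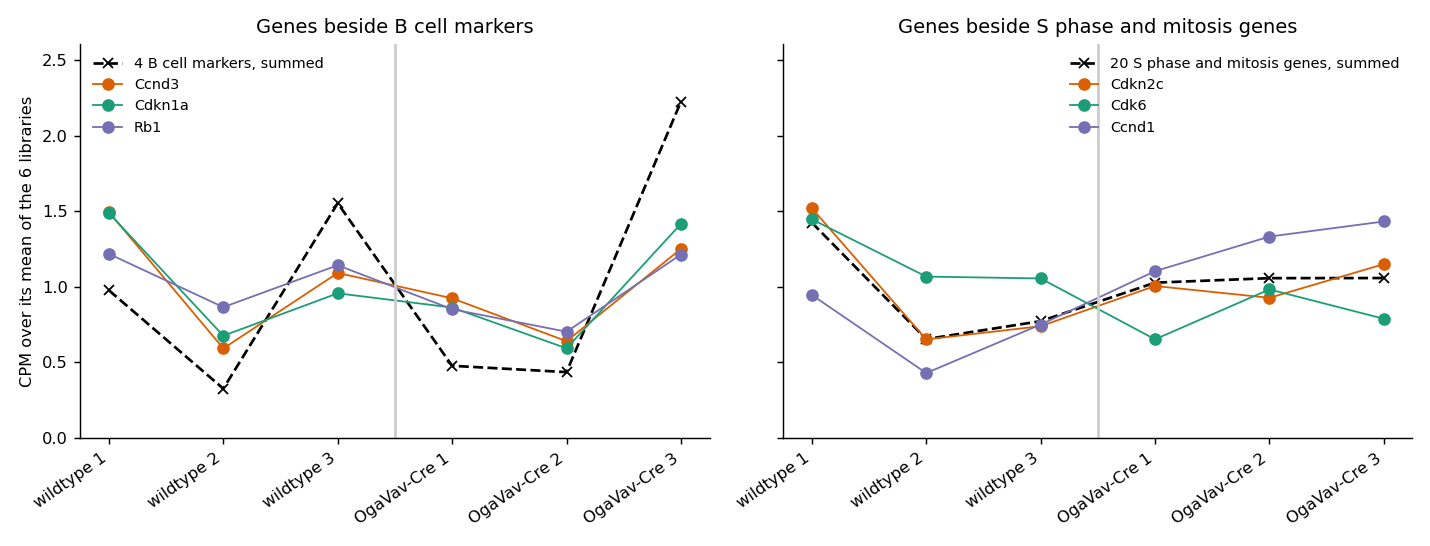
CPM of single genes and summed CPM of marker lists in each library, each divided by its mean over the 6 libraries; lines only guide the eye. On the left, Ccnd3, Cdkn1a and Rb1 were high in the 3 libraries with the highest B cell marker sums (274, 436 and 625 CPM). On the right, Cdkn2c was highest (66.5 CPM) and lowest (28.5 CPM) in the same wildtype libraries as the S phase and mitosis genes. The same held for Ccnd3.

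Around the 10 genes, 66 further genes of the pathway in 6 lists were examined, of which 64 could be tested. None passed both cutoffs with edgeR. At an unadjusted p below 0.05, 2 were higher (background 4.38% of all loci) and 1 was lower (6.27%). Their log2 fold change was above 0 in 44 of 64, against 50.5% of all loci, with a median of 0.08. Of the 64, 3 were higher in every OgaVav-Cre library than in any wildtype library, against 7.5% of all loci. Another 5 were lower in every OgaVav-Cre library, against 9.97% of all loci.

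Of the inhibitors not among the 10, Cdkn1c, known for holding blood stem cells at rest, was at 8.34, 12.2 and 3.58 CPM in the OgaVav-Cre libraries, and at 3.00, 6.54 and 5.46 CPM in the wildtype libraries. The genotypes overlapped through OgaVav-Cre replicate 3 (log2 fold change 0.68, adjusted p = 0.608 with edgeR), and the value lay between 0.25 without OgaVav-Cre replicate 2 and 1.04 without OgaVav-Cre replicate 3 (adjusted p = 0.285 in the latter fit). Cdkn2a and Cdkn2b had too few reads to be tested, with 4 to 36 and 0 to 19 reads in a library. The highest counts of both, 36 and 19 reads, came from OgaVav-Cre replicate 1, the library with the highest plasma cell marker sum (11148 CPM), and the part of such cells in them was not tested.

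Of 16 pocket proteins, E2F factors and their partners, none passed an unadjusted p of 0.05, and 9 had a log2 fold change above 0 (median 0.03). E2f5, a repressing E2F factor, was lower in all OgaVav-Cre libraries, at 5.97 ± 1.17 against 8.38 ± 0.566 CPM (SD, n = 3 each; log2 fold change -0.49, adjusted p = 0.485 with edgeR). E2f1, an activating one, was at 30.4 ± 1.59 and 24.5 ± 5.51 CPM (SD, n = 3 each; log2 fold change 0.31, adjusted p = 0.557). Rbl1 and Rbl2, the pocket proteins related to Rb1, had log2 fold changes of 0.09 (adjusted p = 0.879) and -0.09 (adjusted p = 0.803).

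Of 8 genes of the cyclin E, cyclin A and Cdk2 group, 6 had a log2 fold change above 0 (median 0.14), and none passed an unadjusted p of 0.05. Cdk2, the main kinase that the CIP/KIP proteins hold back, was at 118, 97.3 and 112 CPM in the OgaVav-Cre libraries, and at 123, 128 and 126 CPM in the wildtype libraries. It was lower in all OgaVav-Cre libraries, with a log2 fold change of -0.21 (adjusted p = 0.549 with edgeR). Skp2, which marks p27 for degradation, had a log2 fold change of -0.25 (adjusted p = 0.647), and -0.06 without wildtype replicate 1. In the CDK-activating kinase list, 2 of 4 genes were above 0, and Cdk7 (-0.26, adjusted p = 0.496) and Cdk20 (-0.23, adjusted p = 0.733) were those with the smallest p. Cdk20 was at -0.07 without wildtype replicate 2.

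Among 15 regulators upstream of the pathway, 9 had a log2 fold change above 0 (median 0.05). Foxo4, one of the FOXO factors that induce Cdkn1b, was at 30.2, 29.6 and 30.8 CPM in the OgaVav-Cre libraries, and at 38.0, 46.8 and 37.6 CPM in the wildtype libraries. All OgaVav-Cre libraries were below all wildtype libraries, with a log2 fold change of -0.43 (unadjusted p 0.0128, adjusted p = 0.412 with edgeR). The FOXO genes Foxo1 and Foxo3 overlapped between genotypes, with log2 fold changes of -0.27 (adjusted p = 0.798 with edgeR) and -0.05 (adjusted p = 0.928). Cdc37, a co-chaperone that helps Cdk4 to fold, was at 173, 180 and 146 CPM in the OgaVav-Cre libraries, and at 138, 138 and 130 CPM in the wildtype libraries. It was higher in all OgaVav-Cre libraries, with a log2 fold change of 0.30 (unadjusted p 0.0436, adjusted p = 0.460 with edgeR).

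Of the 20 S phase and mitosis genes, 17 had a log2 fold change above 0 (median 0.24), and 1 passed an unadjusted p of 0.05. That was Tyms, the thymidylate synthase gene, at 52.4, 54.2 and 55.5 CPM in the OgaVav-Cre libraries, and at 51.5, 27.5 and 33.8 CPM in the wildtype libraries (log2 fold change 0.52, adjusted p = 0.465 with edgeR). Mcm7, part of the replicative helicase, followed with 0.34 (adjusted p = 0.564). Wildtype replicate 1 decided the level of this list. Without it, all 20 genes were above 0 (median 0.68; 50.4% of all loci were above 0) and 18 passed an unadjusted p of 0.05, against 7.4% of all loci that were higher at this p in that fit, but the lowest adjusted p was 0.186. Ccnd1 was then at 1.13 (adjusted p = 0.224) and Cdkn2c at 0.56. Most of the 20 genes were highest in wildtype replicate 1 and moved together when it was left out, so the 18 are not independent of each other.

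Ccnd1 had the smallest p of the 10 genes, and the loci most like it over the 6 libraries, among 11875 loci with a mean of at least 10 CPM, were Tmem55b (Pearson r = 0.994 of log2 CPM), Blvrb (r = 0.988) and Ppp2r5e (r = 0.986). Tmem55b was at 105, 108 and 113 CPM in the OgaVav-Cre libraries, and at 103, 86.1 and 97.6 CPM in the wildtype libraries, a much smaller range than that of Ccnd1 in the same order. Of the loci searched, 177 (1.49%) reached an r of 0.9 or more with Ccnd1.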

How the data were processed

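Poly(A) RNA-Seq of LSK cells (RNeasy, NEBNext Ultra, single-end reads of 50 bp) was processed by the authors, with CASAVA 1.8.2 and mm9 per the labels, and summarized per locus with Genomatix; the aligner and its settings are not given in the sources used here. The deposited table holds raw read counts per locus and library, and RPKM values that the authors computed from counts, locus length and library size. Its columns of fold changes, p-values and normalized expression from the authors' comparison were not used. Libraries were grouped by their labels, 3 per genotype, and totals were 19318056 to 27064389 reads, so that 3 reads corresponded to 0.111 to 0.155 CPM.

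Genotypes were compared with edgeR 4.0.16 in R 4.3.3 (TMM, filterByExpr, glmQLFit and glmQLFTest, no covariate) on the counts of all loci, with Benjamini-Hochberg adjustment. Cutoffs, as in the study, were 0.05 for the adjusted p and 1 for the size of the log2 fold change. The study's DESeq2 Wald test was an alternative here (DESeq2 1.42.0). Other alternatives were limma-voom (limma 3.58.1), RLE factors, library totals alone, other filters, the replicate block, each library left out, the RPKM on a log2(RPKM + 0.1) or log2(RPKM + 1) scale with limma-trend, the immunoglobulin share as a covariate and summed loci. The subtraction of LOC100503188, the B cell covariate and the Cdk6 locus ratios were added after seeing the data. Ratios of levels per length (TMM-scaled CPM per kilobase of listed length) were compared with two-sided exact permutation tests (Python 3.11.15, scipy 1.17.1). The fits were tested on simulated data.

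The 10 genes, the lists and the rule for named genes were chosen with earlier results of these data known. Named were the 10 genes, Oga, overlapping loci, up to 2 genes per list with the smallest p, and the 3 loci most like the gene with the smallest p. Myc, Trp53, Foxo1, Foxo3, Rbl1, Rbl2, Cdkn2a and Cdkn2b were named after their values were seen. Each library came from 1 mouse.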

Additional observations from a re-analysis of the deposited data

How the results depend on the processing

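None of the 10 genes and none of the list genes passed both cutoffs under any alternative run. The sign was kept under all alternatives for Ccnd1 (0.61 to 1.13), Ccnd2 (0.38 to 0.68), Cdk4 (0.16 to 0.40), Cdk6 (-0.72 to -0.37), Cdkn1b (-0.50 to -0.15) and Rb1 (-0.47 to -0.05). All alternatives reused the same libraries, so a kept sign does not settle a direction. The main 95% intervals of Cdk4 (-0.09 to 0.65), Cdkn1b (-0.72 to 0.18) and Rb1 (-0.75 to 0.31) included 0. With each library left out, the log2 fold change ranged from -0.45 to 0.16 for Ccnd3, -0.51 to 0.23 for Cdkn1a, -0.13 to 0.56 for Cdkn2c and -0.10 to 0.44 for Cdkn2d. The log2 ratio differences ranged from -0.073 to 0.50 for Cdkn1a/Cdkn1b and -0.21 to 0.23 for Cdkn2d/Cdkn2c. None of these kept its sign. Cdkn1a was at 0.021 with the immunoglobulin share as a covariate, and Cdkn2c at -0.033 with library totals alone, a scaling that moved the median of all loci to -0.11 from 0.0041. The cause of the former was not tested.

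At an unadjusted p below 0.05, the list genes that were higher numbered 2, and between 0 and 24 (without wildtype replicate 1) otherwise. Those that were lower numbered 1, and between 0 and 5 (library totals alone). Of all loci, 4.38% were higher at this p, and 2.19 to 7.4% with a library left out. With library totals alone, 10% were lower, against 6.27%. The 10 genes at this p numbered 3, and 1 to 6 with a library left out, against 10.6% of all loci, and 5.39% (without wildtype replicate 3) to 14.5% (without wildtype replicate 1). Further ranges with a library left out were 0.18 to 0.50 for E2f1, 0.35 to 0.82 for Tyms, 0.21 to 0.55 for Mcm7, -0.37 to -0.06 for Skp2 and -0.35 to -0.07 for Cdk20. The correlations of same-numbered libraries were -0.089, 0.31 and 0.38. OgaVav-Cre replicates 2 and 3 correlated best with the wildtype library of the same number, and OgaVav-Cre replicate 1 with wildtype replicate 2 (0.26). These values do not settle whether the replicate numbers pair the libraries. With the replicate block, 0 of the 10 genes and 0 of the list genes passed both cutoffs, and the loci that passed in all numbered 2 higher and 4 lower, against 1 and 6 without it. Depth limits Cdkn1a most, with 140 to 417 reads in a library.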
